A study of Mus musculus with 4 samples.

Results

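The cytosolic ribosomal protein genes of Hepa1-6 cells, a mouse hepatoma line, were examined after knockdown of Chd1, a chromatin remodeler that moves nucleosomes on transcribed genes. Every gene named Rpl or Rps with a number and at most one letter a, x or l was taken, together with Rplp0, Rplp1, Rplp2 and Rpsa, while Rps27l, the Rps6k kinases and pseudogenes were left out. This gave 81 of 23521 genes, with 31 coding for the small and 50 for the large ribosomal subunit. The Chd1KD group (n = 2 libraries) carried a lentiviral shRNA against Chd1, and the Control group (n = 2) carried a scrambled shRNA from the same kind of virus. All 4 cultures grew in DMEM with serum and were selected in puromycin at 4 μg/ml for 3 weeks, and poly(A) RNA was sequenced from 10 μg of total RNA. The labels call the genotype of the scrambled cultures wild type. Values are RPKM, reads scaled to transcript length and library size, summed over the RefSeq transcripts of a gene. Whether the 2 libraries of a group stem from different transductions is not given in the labels, and the p-values therefore cover only the spread among the 4 libraries, which may be technical.

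Ribosomal proteins are made in near-equal amounts, one copy of nearly every protein per ribosome, and in dividing cells their mRNAs are among the most abundant. Their transcripts begin with a run of pyrimidines, the 5′ terminal oligopyrimidine (TOP) motif, through which mTOR and the RNA-binding protein Larp1 govern their translation. Free Rpl5 and Rpl11, bound to 5S ribosomal RNA, inhibit Mdm2, the ubiquitin ligase that turns over p53. In liver and liver tumours the output of ribosomes is tied to growth and to protein secretion.

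The knockdown was visible in the targeted mRNA. Chd1 had 10.4 and 11.3 RPKM in Chd1KD libraries, against 21.4 and 22.5 RPKM in Control libraries, and it fell by 0.96 on the log2(RPKM + 1) scale (SE 0.07, limma adjusted p = 0.012; 0.25 when genes of any level were tested). The libraries summed to 466950 and 459382 RPKM for Chd1KD and to 484490 and 462332 RPKM for Control, and read depth is unknown. Control replicate 1 had the highest sum, and 70 of 77 tested members were higher there than in Control replicate 2. Among hepatocyte markers Ttr and Serpina1a were listed at 0 in all libraries, while Alb, Apoa2, Apob, Apoe, Afp, Hnf4a, Fgb and Trf averaged at least 1 RPKM. The summed level of all 11 hepatocyte markers was 996 and 1326 RPKM in Chd1KD libraries, against 1415 and 2284 RPKM in Control libraries, a difference whose part in the ribosomal protein results was not tested. All matched markers of macrophages, endothelium, stellate cells and lymphocytes (5, 5, 6 and 5 genes) averaged under 1 RPKM. Of the 4 cholangiocyte markers, Krt7, Sox9 and Epcam reached 1 RPKM, and the list summed to 19.0 and 20.1 RPKM in Chd1KD libraries, against 25.5 and 28.9 RPKM in Control libraries.

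No ribosomal protein gene passed the test in either direction. Of the 81 genes, 77 averaged at least 1 RPKM and entered the fit of 10209 genes on log2(RPKM + 1), and limma called 0 of them at a Benjamini-Hochberg adjusted p under 0.05, against 0.460% of all genes tested (47 genes, 0.274% higher and 0.186% lower). The smallest adjusted p among them was 0.133, for Rps12. At an unadjusted p under 0.05 there were 6 members, 1 higher and 5 lower, or 7.79% of those tested, while the share over all genes was 18.5%, made up of 7.24% higher and 11.3% lower. In 3 members both Chd1KD libraries lay above both Control libraries and in 27 both lay below, against 21.3% and 30.5% of all genes. Together these 30 made up 39.0% of the tested members, below the 51.8% over all genes.

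Differences were small for nearly the whole group. The log2 difference was under 0.25 in size for 75 of the 77 tested members (97.4%), against 89.0% of all genes. Between replicates of a group the members also differed less than all genes. The median absolute log2 difference was 0.043 against 0.068 between the Chd1KD libraries, and 0.077 against 0.095 between the Control libraries. In 70 members the ratio of group means lay between 0.9 and 1.1. Simulated data for this comparison held 10209 genes, of which a random set changed by the same fold in each draw. With another number of changed genes the share recovered could differ. On these data the test recovered 76.8% of 1.5-fold changes and 98.3% of 2-fold changes. It recovered 0% of 1.1-fold changes, and also 0% of larger ones with a mean log2 difference of 0.323. Shifts of the size seen in the 75 members under 0.25 were therefore not detectable one by one with these libraries. That these members, Rps12 and Rpl11 included, did not pass does not show that they were unchanged. For 48 members the difference between the Control libraries was itself larger than the difference between the groups. No share over all genes is at hand for this count or for that of the ratios, so neither is read as particular to the members.

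**Figure D1:**
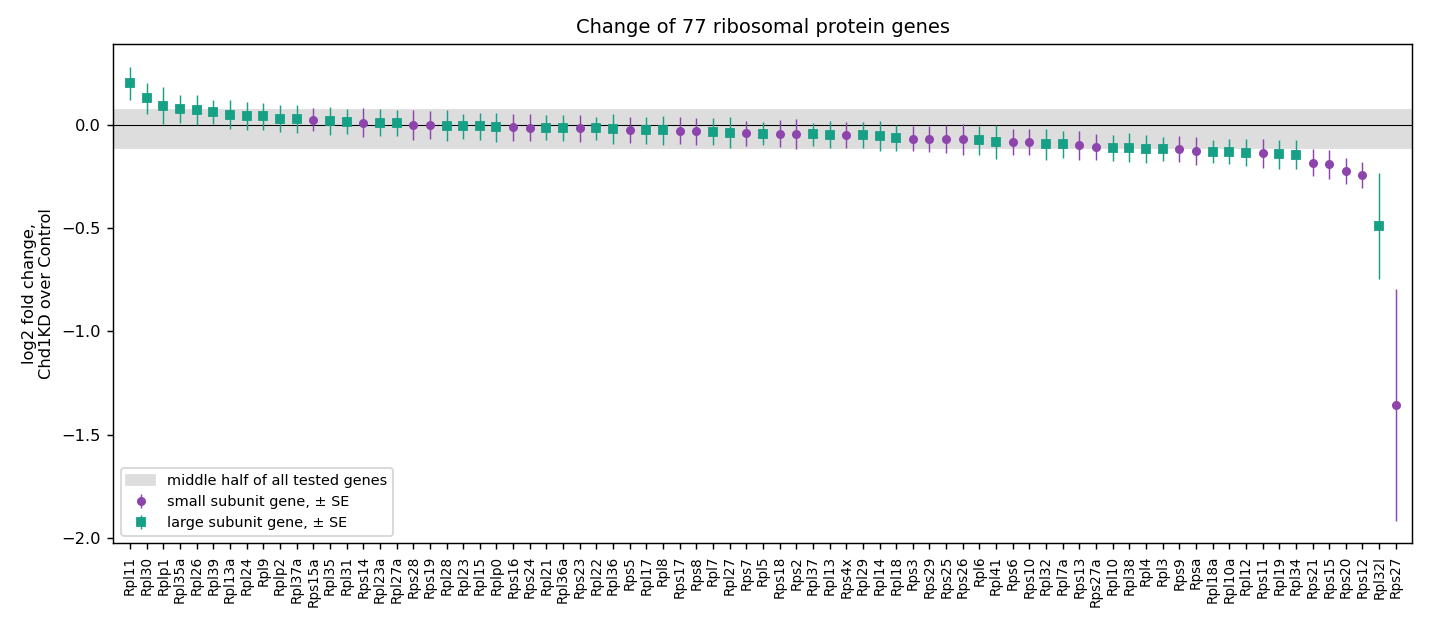
Log2 fold change (Chd1KD over Control, log2(RPKM + 1) scale, vertical axis) of the 77 tested ribosomal protein genes, ordered by value, with bars of ± 1 SE; circles are small subunit and squares large subunit genes, and the band spans the interquartile range of all 10209 tested genes. Most genes lie inside the band, Rpl11 stands at the upper end, and Rps12, Rps20, Rps15, Rps21, Rpl32l and Rps27 at the lower end.

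The members leaned slightly to lower values in Chd1KD, except after quantile normalization and without Control replicate 1. The median log2 difference over tested members was -0.04 (60 negative, 17 positive), against -0.02 over all genes, of which 56.5% were negative. It was -0.02 after median-ratio scaling and also after scaling to genes that are not ribosomal protein genes, with 47 negative and 30 positive under each. It became 0.0056 after quantile normalization, with 41 positive and 35 negative, and 0.0009 without Control replicate 1. Without Control replicate 2 it was -0.08, with 70 negative. Taking libraries in pairs, the median member difference was -0.07 for Chd1KD replicate 1 minus Control replicate 1 and -0.10 for Chd1KD replicate 2 minus Control replicate 1. Set against Control replicate 2, Chd1KD replicate 1 gave 0.0070 and Chd1KD replicate 2 gave -0.02. The Control libraries differed from each other by -0.08 (replicate 2 minus replicate 1, negative in 70 of 77 members).

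Ribosomal protein mRNA made up a large share of all RPKM in these cells, and the group held 57 of the 100 most abundant genes. Summed over the members, the level was 99372 ± 1447 RPKM in Chd1KD libraries and 102856 ± 4294 RPKM in Control libraries (SD, n = 2 each), a ratio of 0.966. As a share of each library's summed RPKM this was 21.5% ± 0.064 in Chd1KD and 21.7% ± 0.19 in Control (SD, n = 2 each). The ratio of summed RPKM was 1.003 after quantile normalization, and no test was made of it, since the smallest two-sided p that an exact permutation test of 2 by 2 libraries can give is 0.33. Of the members, 45 averaged over 1000 RPKM, 29 lay between 100 and 1000 RPKM, and Rps15a, Rpl34 and Rpl32l lay between 1 and 100 RPKM. The most abundant was Rpl41, whose product is a very short basic peptide, with 6139 and 5854 RPKM in Chd1KD libraries, against 6659 and 6045 RPKM in Control libraries. Rps2, which lines the mRNA entry channel, followed with 3420 and 3289 RPKM in Chd1KD, against 3576 and 3347 RPKM in Control. In both genes the groups overlapped.

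**Figure D2:**
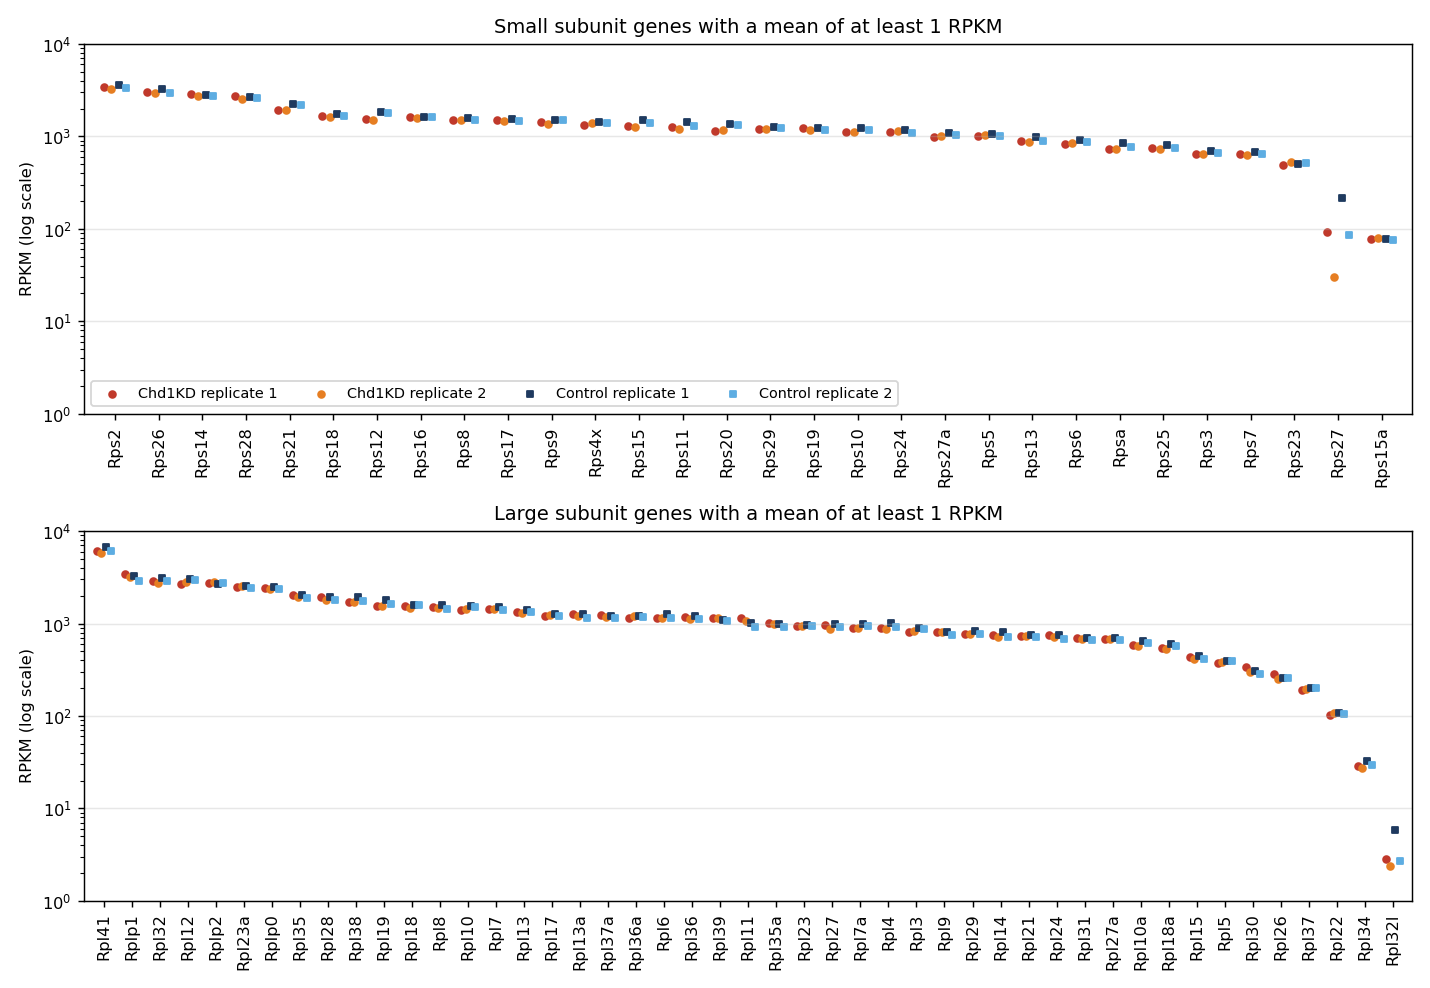
RPKM on a log scale (vertical axis) of each tested small subunit gene (upper panel) and large subunit gene (lower panel) in the 4 libraries, ordered by mean level; circles are the Chd1KD and squares the Control libraries. Levels span from a mean of 3.42 RPKM for Rpl32l to a mean of 6174 RPKM for Rpl41, the 4 points of most genes lie almost on top of each other, and those of Rps27 are spread widely within both groups.

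Among small subunit genes, 28 of 30 tested (93.3%) had a negative log2 difference, against 56.5% of all genes, with a median of -0.07 that shrank to -0.01 after quantile normalization and to -0.03 without Control replicate 1. Both Chd1KD libraries lay below both Control libraries in 13 of them (43.3%, against 30.5% of all genes) and above in 0 (21.3% of all genes). Rps12, a protein of the small subunit head that in Drosophila takes part in cell competition, had 1539 and 1522 RPKM in Chd1KD libraries, against 1834 and 1787 RPKM in Control libraries. The coding sequence of Rps12 is nearly identical to that of 22 other annotated genes, none of them in the table. In Rps12 the groups did not overlap and the libraries within each lay close together. Its log2 difference was -0.24 (SE 0.06, unadjusted p = 0.0064, limma adjusted p = 0.133). It did not pass under any alternative, where its adjusted p lay between 0.054 and 0.60.

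Rps20, also a protein of the head, had 1136 and 1171 RPKM in Chd1KD, against 1373 and 1318 RPKM in Control, a log2 difference of -0.22 (limma adjusted p = 0.150). Rps15, whose tail reaches towards the decoding centre, had 1303 and 1261 RPKM in Chd1KD, against 1521 and 1411 RPKM in Control, a log2 difference of -0.19 (limma adjusted p = 0.212). Rps21, a eukaryote-specific small subunit protein, had 1931 and 1949 RPKM in Chd1KD, against 2251 and 2159 RPKM in Control, a log2 difference of -0.18 (limma adjusted p = 0.207). In each of these genes both knockdown libraries were the lower pair, and none passed over all genes.

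Rps27 was the member with the widest spread. This gene, coding for a zinc-finger protein of the small subunit, had 91.3 and 30.4 RPKM in Chd1KD libraries, against 217 and 85.8 RPKM in Control libraries. Replicate 1 was well above replicate 2 in both groups, and Chd1KD replicate 1 lay above Control replicate 2, so the groups overlapped. The log2 difference was -1.35 (SE 0.56, limma adjusted p = 0.265). Without Chd1KD replicate 1 it was -2.13 and passed the test (adjusted p = 0.0074), without Chd1KD replicate 2 it was -0.58, and over all alternatives the adjusted p ranged from 0.0074 to 0.58. Its coding sequence is nearly identical to that of 4 other annotated genes, of which Rps27rt, the only one in the table, was listed at 0. The paralog Rps27l, outside the naming rule, stood at 513 and 469 RPKM in Chd1KD and 540 and 442 RPKM in Control.

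Other small subunit genes of known interest differed little, though both knockdown libraries lay below both controls in Rps6, Rpsa and Rps27a. Rps6, the substrate of S6 kinase, had 832 and 839 RPKM in Chd1KD, against 912 and 861 RPKM in Control. Its log2 difference of -0.08 became 0.02 after quantile normalization. Rps19, the gene most often mutated in human Diamond-Blackfan anaemia, had 1240 and 1159 RPKM in Chd1KD, against 1231 and 1171 RPKM in Control, a log2 difference of -0.0017. Both Control values of Rps19 lay between the Chd1KD values. Rpsa, also known as the laminin receptor, had 738 and 732 RPKM in Chd1KD, against 838 and 769 RPKM in Control (log2 difference -0.13, limma adjusted p = 0.349). Rps27a, made as a fusion with ubiquitin, had 979 and 1005 RPKM in Chd1KD, against 1094 and 1046 RPKM in Control (log2 difference -0.11, limma adjusted p = 0.386). Rps26, at the mRNA exit channel, was the most abundant small subunit gene after Rps2, with 2989 and 2962 RPKM in Chd1KD and 3287 and 2973 RPKM in Control.

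Among large subunit genes, 32 of 47 tested (68.1%) were negative and 15 positive, with a median of -0.03 that was 0.02 both after quantile normalization and without Control replicate 1. Groups did not overlap in 14 lower genes (29.8%, against 30.5% of all genes) and 3 higher genes (6.38%, against 21.3%). The highest ratio belonged to Rpl11. It had 1162 and 1064 RPKM in Chd1KD libraries, against 1020 and 917 RPKM in Control libraries. Both knockdown libraries lay above both controls, by a narrow margin between Chd1KD replicate 2 and Control replicate 1. The log2 difference was 0.20 (SE 0.08, unadjusted p = 0.042, limma adjusted p = 0.254), and its adjusted p lay between 0.077 and 0.82 over the alternatives. Its partner in the 5S particle, Rpl5, had 370 and 387 RPKM in Chd1KD, against 389 and 390 RPKM in Control, a log2 difference of -0.04. Both knockdown values of Rpl5 lay below both Control values, by a narrow margin.

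Rpl35a and Rpl39 were the other members with both knockdown libraries above. Rpl35a, mutated in some cases of human Diamond-Blackfan anaemia, had 1020 and 997.1 RPKM in Chd1KD, against 996.4 and 919.5 RPKM in Control (log2 difference 0.08). Rpl39, which lines the exit tunnel of the nascent chain, had 1135 and 1135 RPKM in Chd1KD, against 1099 and 1077 RPKM in Control (log2 difference 0.06). Neither passed (limma adjusted p = 0.578 and 0.619). Rpl26, a protein near the tunnel exit, had 287 and 254 RPKM in Chd1KD, against 255 and 259 RPKM in Control (log2 difference 0.07). Rpl13a, which in human cells also acts in a complex that silences inflammatory mRNAs, had 1278 and 1217 RPKM in Chd1KD, against 1256 and 1158 RPKM in Control (log2 difference 0.05). Rpl24, part of a bridge between the subunits, had 756 and 720 RPKM in Chd1KD, against 748 and 686 RPKM in Control (log2 difference 0.04). The groups of these 3 overlapped. At the other end, Rpl19, also in a subunit bridge, had 1550 and 1563 RPKM in Chd1KD, against 1793 and 1645 RPKM in Control, without overlap (log2 difference -0.14, limma adjusted p = 0.330).

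The stalk that recruits translation factors is built from Rplp0, Rplp1 and Rplp2, and its median log2 difference was 0.03. Rplp1 had 3400 and 3196 RPKM in Chd1KD, against 3310 and 2889 RPKM in Control, a log2 difference of 0.09 that was -0.0059 without Control replicate 2. Rplp0, often used as a reference in qPCR, had 2429 and 2387 RPKM in Chd1KD, against 2514 and 2344 RPKM in Control (log2 difference -0.01). Rplp2 had 2724 and 2825 RPKM in Chd1KD, against 2694 and 2741 RPKM in Control (log2 difference 0.03). In all 3 genes the groups overlapped. Rpl32, also among the most abundant members, had 2903 and 2734 RPKM in Chd1KD, against 3118 and 2901 RPKM in Control, likewise with overlap. Rpl12, which sits at the base of the stalk, had 2691 and 2792 RPKM in Chd1KD, against 3042 and 2979 RPKM in Control, without overlap (log2 difference -0.14, limma adjusted p = 0.331).

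The 4 members on the X chromosome, Rpl10, Rpl36a, Rpl39 and Rps4x, had a median log2 difference of -0.03. Rpl10, one of the last proteins to join the large subunit, had 1401 and 1439 RPKM in Chd1KD, against 1566 and 1503 RPKM in Control (log2 difference -0.11, limma adjusted p = 0.385). Its groups did not overlap. Rps4x, which has a Y-linked counterpart in humans, had 1334 and 1393 RPKM in Chd1KD, against 1428 and 1392 RPKM in Control (log2 difference -0.05). Rpl36a had 1152 and 1204 RPKM in Chd1KD, against 1204 and 1177 RPKM in Control (log2 difference -0.02). Both overlapped between groups. Rpl22, at 103 and 106 RPKM in Chd1KD and 108 and 104 RPKM in Control, was among the least abundant of the tested members, and its paralog Rpl22l1 stood at 199.98 and 200.23 RPKM in Chd1KD and 231 and 196 RPKM in Control. The tissue-restricted paralogs Rpl3l, known from muscle, and Rpl10l and Rpl39l, known from testis, were listed at 0 in all 4 libraries. So was Rps4l, which the annotation calls a transcribed pseudogene but which the naming rule takes. These 4 are the members that were not tested.

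The balance between subunits was computed after the small subunit medians had been seen, and is given without a test. The ratio of summed small to summed large subunit RPKM was 0.66485 and 0.66476 in Chd1KD libraries, against 0.68373 and 0.68959 in Control libraries. Both knockdown libraries lay below both controls, as they also did in 30.5% of all tested genes, and the knockdown mean was 0.968 of the Control mean. Small subunit mRNA made up 8.57% ± 0.026 of the summed RPKM in Chd1KD and 8.84% ± 0.045 in Control, while large subunit mRNA made up 12.9% ± 0.038 in Chd1KD and 12.9% ± 0.14 in Control (SD, n = 2 each). The groups also stayed apart after quantile normalization (0.973 of the Control mean) and with near-identical copies added (0.969). Without Rps12, Rps15, Rps20 and Rps21, chosen for their low values, the ratio was 0.567 and 0.565 in Chd1KD libraries, against 0.573 and 0.577 in Control libraries, or 0.985 of the Control mean.

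**Figure D3:**
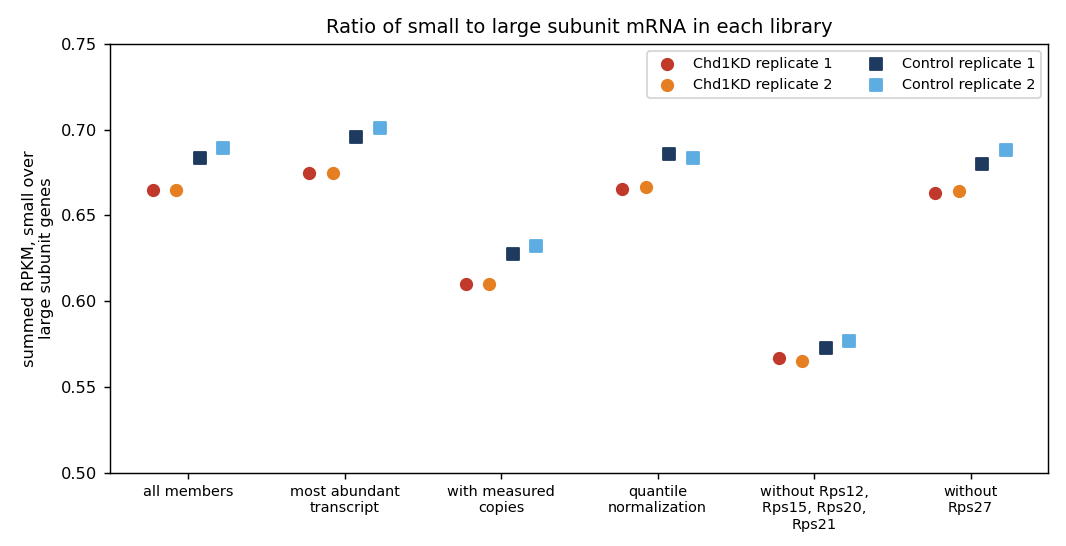
Ratio of the summed RPKM of small subunit genes to that of large subunit genes (vertical axis, from 0.50 to 0.75) in each library, for all members and for 5 other ways of summing; circles are Chd1KD and squares Control libraries. In every column the Chd1KD points lie below the Control points, and the gap narrows most without Rps12, Rps15, Rps20 and Rps21, where Chd1KD stands at 0.985 of the Control mean. All columns sum largely the same genes of the same 4 libraries, so they are not independent of each other.

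**Figure D4:**
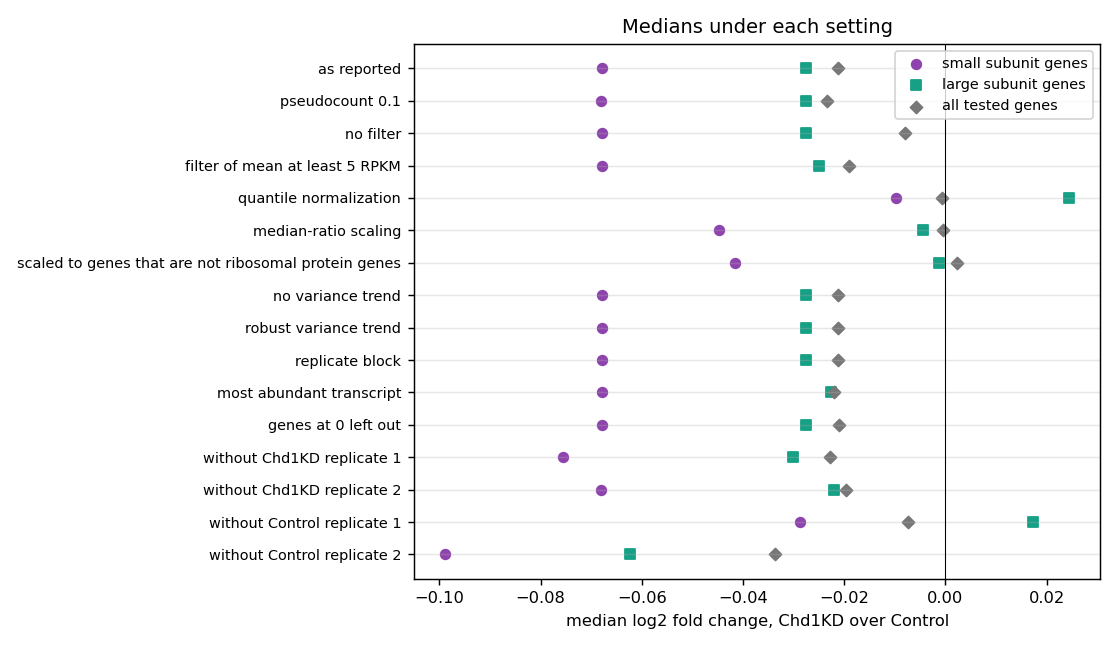
Median log2 fold change (Chd1KD over Control, horizontal axis) of small subunit genes, large subunit genes and all tested genes under each processing choice or with each library left out, one row per choice. The small subunit median lies left of the large subunit median in every row, and the large subunit median is above 0 after quantile normalization and without Control replicate 1.

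Near-identical copies limited what single values mean for these genes. Of 79 members with a coding sequence to compare, 74 had at least 1 other annotated gene whose transcript matched at least 95% of the bases over at least 80% of the coding length, with a median of 5 and a maximum of 57 for Rpl21. The mouse annotation names 319 pseudogenes after 63 of the members. How the authors' counting divided reads among such copies is not given in the sources used here, and 14 members had a copy in the table. Rpl34 held 28.8 and 27.1 RPKM in Chd1KD, against 32.5 and 29.6 RPKM in Control, without overlap, yet it was only 1.56% of its sum with Rpl34-ps1. That sum was 1916 and 1909 RPKM in Chd1KD, against 1915 and 1837 RPKM in Control, and its log2 difference of 0.03 had the opposite sign to the -0.15 of Rpl34 alone.

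Rpl30 behaved likewise. It had 338 and 303 RPKM in Chd1KD libraries, against 305 and 281 RPKM in Control libraries, overlapping, with a log2 difference of 0.13. Added to its copy Gm12191 it was 10.3% of a sum of 2959 and 2832 RPKM in Chd1KD, against 3103 and 2956 RPKM in Control, and the log2 difference was -0.07. Rpl37 made up 20.5% of its sum with Rpl37rt, Rpl31 68.7% of that with Rpl31-ps12, and Rps15a 75.8% of that with 2 pseudogenes. Rps15a itself, low among the members, had 77.4 and 79.1 RPKM in Chd1KD, against 78.2 and 75.6 RPKM in Control. In the other 9 members with a measured copy the copies held under 2% of the sum. Rpl32l, a retained copy of Rpl32, had 2.80 and 2.36 RPKM in Chd1KD, against 5.79 and 2.71 RPKM in Control. Only Control replicate 1 stood out, and without Control replicate 2 the gene passed the test (log2 difference -0.93, limma adjusted p = 0.018, with 0.018 to 0.85 over its alternatives).

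Single transcripts were then tested, an analysis added after isoforms of some genes were seen to move in opposite directions. The members have 95 transcripts in the table, and 10 members have more than 1. Limma called 0 of 89 tested member transcripts, against 0.00% of all 11965 transcripts tested. The targeted Chd1 was thus not called in this fit either, and not passing it does not show that a transcript was unchanged. Of the 89 member transcripts, 9 (10.1%) had an unadjusted p under 0.05, against 14.3% of all. Groups did not overlap in 36 (40.4%), against 48.7% of all. Depth per transcript is unknown, and the error of dividing reads among the isoforms of a gene is not in the files.

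The main transcript of Rps27, NM_027015, differed as the gene did, with a log2 difference of -1.49 and overlapping groups (limma adjusted p = 0.389). The smallest unadjusted p among member transcripts belonged to an isoform of Rps24, a small subunit gene also mutated in human Diamond-Blackfan anaemia and known for short alternative exons near its 3′ end. The isoforms differ by 2 such exons on the plus strand of chromosome 14 (GRCm38), absent from the main transcript NM_207634. Their sequences, taken from the GENCODE M21 transcripts matched to these RefSeq names, are shown because they tell the isoforms apart. The first is exon 5 of NM_011297, and exon 6 of NM_207635. The second is exon 5 of NM_207635 alone. Capitals are not used, since no motif was searched in them.
Rps24 exon of 20 bases, chr14:24495430-24495449: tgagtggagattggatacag
Rps24 exon of 18 bases, chr14:24494052-24494069: aaatgaaatacctagcag

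NM_011297, which holds only the 20-base exon, had 34.5 and 28.3 RPKM in Chd1KD libraries, against 18.7 and 15.9 RPKM in Control libraries. Both knockdown libraries stood clearly above both controls. The ratio of means was 1.81, with a log2 difference of 0.82 (SE 0.12, unadjusted p = 0.00096, limma adjusted p over all transcripts = 0.171). It was 2.80% ± 0.43 of the gene's RPKM in Chd1KD and 1.52% ± 0.092 in Control (SD, n = 2 each). The main transcript, NM_207634, had 1033 and 1062 RPKM in Chd1KD, against 1110 and 1037 RPKM in Control, and NM_207635 had 44.6 and 43.9 RPKM in Chd1KD, against 49.2 and 39.3 RPKM in Control. Both overlapped between groups.

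In Rpl30 and Rpl19 an isoform had a positive log2 difference while the gene's other transcript had a negative one. Rpl30 binds its own pre-mRNA in yeast. Its isoform NM_001163485 had 190 and 176 RPKM in Chd1KD, against 143 and 136 RPKM in Control (log2 difference 0.39, limma adjusted p = 0.202), and NM_009083 had 147 and 126 RPKM in Chd1KD, against 162 and 145 RPKM in Control (log2 difference -0.17). The groups of NM_009083 overlapped. The isoform NM_001163485 made up 57.3% ± 1.4 of the gene's RPKM in Chd1KD and 47.7% ± 1.1 in Control (SD, n = 2 each). Since Rpl30 was only 10.3% of its sum with Gm12191, these shares may depend on how reads were divided with that copy, which is not known. Rpl19 had 58.3 and 71.0 RPKM of NM_001159483 in Chd1KD, against 43.3 and 44.6 RPKM in Control (log2 difference 0.54, limma adjusted p = 0.215). Its main transcript NM_009078 had 1491.6 and 1491.7 RPKM in Chd1KD, against 1750 and 1600.2 RPKM in Control (log2 difference -0.17).

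Isoforms of Rps27a and Rpl38 had negative differences. NM_001033865 of Rps27a had 60.7 and 56.9 RPKM in Chd1KD, against 92.0 and 77.4 RPKM in Control (log2 difference -0.51, limma adjusted p = 0.214). Rpl38, needed in the mouse embryo for the translation of Hox mRNAs, had 383 and 429 RPKM of NM_001048058 in Chd1KD, against 583 and 479 RPKM in Control (log2 difference -0.38, limma adjusted p = 0.265). Groups did not overlap in either. The main transcript of Rpl38, NM_023372, had 988.7 and 987.5 RPKM in Chd1KD, against 996.0 and 942.9 RPKM in Control, with overlap.

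**Figure D5:**
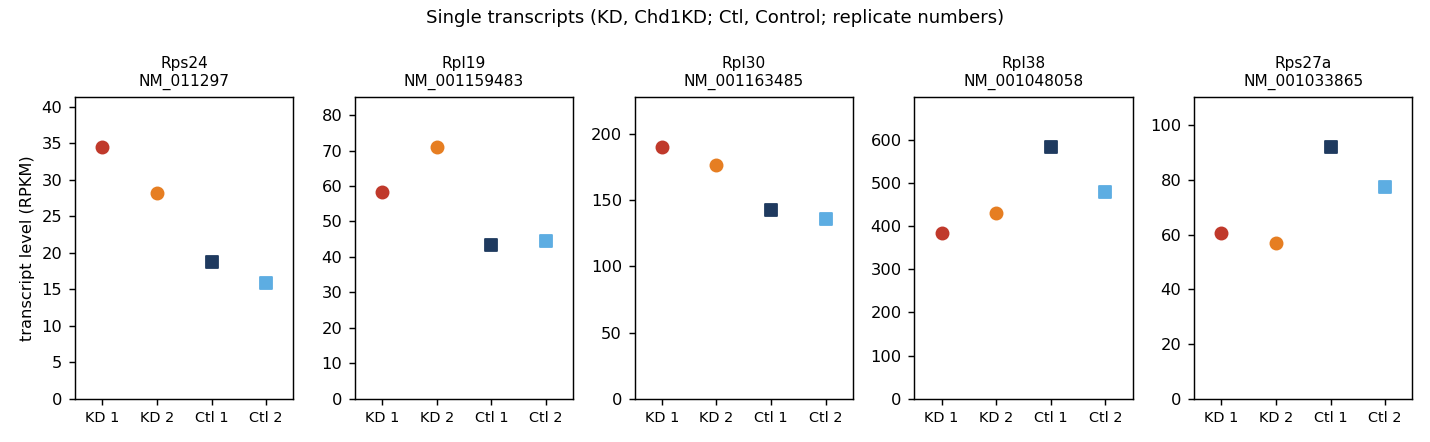
RPKM (vertical axis, from 0) of 5 isoforms in each library, one panel per transcript; circles are the Chd1KD libraries (KD 1, KD 2) and squares the Control libraries (Ctl 1, Ctl 2). The panels hold the transcripts with an unadjusted limma p under 0.05 among members with more than 1 transcript. The separation of the groups therefore follows largely from this choice, and no transcript shown passed over all transcripts. In the panels of Rps24, Rpl19 and Rpl30 both Chd1KD points lie above both Control points, and in those of Rpl38 and Rps27a both lie below.

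Some promoter features that the rule did not use were more frequent among the members than among all genes with a promoter. Those genes were not limited to the ones expressed in these cells. RefSeq promoters (GRCm38.p6, 250 bases before to 50 after the start) matched 60 of the 81 members. Motifs were searched on both strands, and matches of different motifs may overlap. CCGGAAG, the core bound by ETS factors such as GABP, was found in 24 of the 60 (40%), against 9.93% of 27025 genes with a promoter. AAGATGG, the YY1 core, was in 15% of members and 7.28% of genes, GGGCGG, the Sp1 box, in 58.3% and 38.2%, and TATAAA in 11.7% and 15.7%. The first 5 transcribed bases were all pyrimidines in 17 members (28.3%), against 5.28% of genes. A run of at least 7 pyrimidines within 20 bases of the start on either side was present in 37 members (61.7%), against 27.5% of genes. A match is a description and not a measured site.

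Stretches from 80 bases before to 20 after the start are shown for the members with the largest positive and negative log2 difference (Rpl11 and Rps27), for Rps12, added after its values were seen, and for 2 genes of the stalk. Capitals mark the ETS core, the YY1 core and the Sp1 box, on either strand, and the pyrimidine run nearest the start.
Rpl11, chr4:136053374-136053473, minus strand: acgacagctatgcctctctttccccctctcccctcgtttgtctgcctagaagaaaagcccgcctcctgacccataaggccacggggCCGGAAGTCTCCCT
Rps27, chr3:90213629-90213728, minus strand: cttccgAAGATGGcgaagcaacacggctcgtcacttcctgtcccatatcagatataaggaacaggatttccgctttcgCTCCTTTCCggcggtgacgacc
Rps12, chr10:23787190-23787289, minus strand: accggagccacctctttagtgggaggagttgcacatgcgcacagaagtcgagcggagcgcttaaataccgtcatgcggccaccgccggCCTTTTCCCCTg
Rplp0, chr5:115559387-115559486, plus strand: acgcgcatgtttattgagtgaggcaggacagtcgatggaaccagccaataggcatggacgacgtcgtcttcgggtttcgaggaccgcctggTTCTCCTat
Rplp2, chr7:141447571-141447670, plus strand: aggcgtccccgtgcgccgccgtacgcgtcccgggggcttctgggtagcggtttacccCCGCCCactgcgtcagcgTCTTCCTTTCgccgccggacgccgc

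A pyrimidine run is present in all 5, in the gene with the highest ratio (Rpl11) and in those with low ratios (Rps12, Rps27) alike. Its position differs. The run begins 5 bases before the annotated start in Rplp2 and 2 bases before it in Rps27. In Rps12, Rplp0 and Rpl11 it begins only at transcribed base 9, 12 and 14. In these last genes the first 5 transcribed bases are not all pyrimidines. The ETS core is in the printed stretch of Rpl11 only.

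Limma called 0 genes in each of the related lists that follow, which at 0.460% of all genes called is near the background for lists of 8 to 78 genes. At an unadjusted p under 0.05, 7.24% of all genes were higher and 11.3% lower. Of the ribosomal proteins and paralogs outside the naming rule, 8 were tested, with a median log2 difference of -0.04 and 0 at an unadjusted p under 0.05. Rack1, a scaffold on the small subunit, had 1117 and 1139 RPKM in Chd1KD, against 1224 and 1197 RPKM in Control (log2 difference -0.10, limma adjusted p = 0.405). Rpl36al had a log2 difference of 0.08 with overlap, and Rpl7l1 one of -0.07 without. Of 24 translation factors and other TOP mRNAs, 1 was lower at an unadjusted p under 0.05, and their median was -0.04. This was Eef2, the elongation factor of translocation, with 999 and 985 RPKM in Chd1KD, against 1128 and 1098 RPKM in Control (log2 difference -0.17, limma adjusted p = 0.218). Npm1, a nucleolar chaperone, had a log2 difference of -0.16 without overlap. Rabggtb was listed at 0 in Chd1KD replicate 1, against 70.8 RPKM in Chd1KD replicate 2 and 90.7 and 85.6 RPKM in Control.

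Of 40 ribosome assembly factors and chaperones, 0 were higher and 3 lower at an unadjusted p under 0.05, with a median of -0.06. The lowest log2 difference in this list, -3.46, was also the lowest over all tested genes. It belonged to a gene that is not among these 3 and is not named here. Eif6, which keeps the large subunit from joining too early, had 268 and 262 RPKM in Chd1KD, against 311 and 292 RPKM in Control (log2 difference -0.19, limma adjusted p = 0.182). Ltv1, a factor of small subunit assembly, had 29.2 and 28.9 RPKM in Chd1KD, against 35.5 and 31.7 RPKM in Control (log2 difference -0.20, limma adjusted p = 0.206). Tsr2, a chaperone of Rps26, had 7.77 and 7.34 RPKM in Chd1KD, against 8.79 and 8.48 RPKM in Control (log2 difference -0.17, limma adjusted p = 0.262). In all 3 the groups did not overlap.

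Of 29 genes that control ribosomal protein transcription and translation or respond to their loss, 1 was higher and 3 lower at an unadjusted p under 0.05, with a median of -0.02. Max, the partner of Myc, had 35.2 and 34.4 RPKM in Chd1KD, against 30.6 and 29.5 RPKM in Control (log2 difference 0.21, limma adjusted p = 0.149). Myc itself had 63.7 and 59.2 RPKM in Chd1KD, against 67.6 and 67.1 RPKM in Control, lower without overlap (log2 difference -0.13, limma adjusted p = 0.300). Mlst8, a subunit of mTOR complexes, had 5.43 and 6.52 RPKM in Chd1KD, against 7.64 and 7.30 RPKM in Control (log2 difference -0.28, limma adjusted p = 0.189). Trp53, which codes for p53, had 149 and 142 RPKM in Chd1KD, against 178 and 165 RPKM in Control (log2 difference -0.24, limma adjusted p = 0.139). Mdm2, its ubiquitin ligase, had 95.8 and 88.4 RPKM in Chd1KD, against 87.2 and 73.9 RPKM in Control, without overlap (log2 difference 0.19, limma adjusted p = 0.300). Of these lists, the mitochondrial ribosomal proteins were the longest, with 78 genes, 2 higher and 8 lower at an unadjusted p under 0.05, and a median of -0.05. Mrpl40 had 18.7 and 18.9 RPKM in Chd1KD, against 22.8 and 22.9 RPKM in Control (log2 difference -0.27, limma adjusted p = 0.104). Mrpl20 had 124 and 117 RPKM in Chd1KD, against 104 and 94.9 RPKM in Control (log2 difference 0.28, limma adjusted p = 0.121), and Mrpl27 a log2 difference of -0.29. The level check Gapdh had 1106 and 1037 RPKM in Chd1KD, against 1238 and 1219 RPKM in Control (ratio 0.872, limma adjusted p = 0.187), while Actb and Tbp had ratios of 0.946 and 0.981.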

How the data were processed

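Poly(A) RNA-seq libraries of Hepa1-6 cells, 2 Chd1KD and 2 Control, were compared, grouped by the sample titles. The authors deposited RPKM values for 30582 RefSeq transcript rows, per the file headers. Per the submitters' processing notes, mm10 was the build, and Cufflinks 1.3.0 and TopHat 1.4.1 were among the tools. No annotation release, strand setting or filter is stated, so reads of overlapping genes (20 members overlap a protein-coding gene) cannot be told apart. No counts were given, and low RPKM steps did not yield them (the commonest ratio between libraries was carried by 31 to 39 of 376 low transcripts), so depth is unknown and no counting interval is given. Each library's own table matched its column in the series table.

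Rows were named through NCBI GRCm38.p6 (30003 rows) and GENCODE M21 (180), 399 stayed unnamed (0.304% of summed RPKM), and RPKM was summed per gene. Limma 3.58.1 (R 4.3.3) was fitted to log2(RPKM + 1) of genes averaging 1 RPKM or more, two-sided, with the variance trended on the mean, without a block and with Benjamini-Hochberg adjustment over all tested genes. An adjusted p under 0.05 was a call. The log2 differences understate changes of low genes. The fit was tested on simulated data. Near-identical copies were found with BLAST+ 2.17.0. Sums, medians and the subunit ratio were given without a test.

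The members and gene lists were chosen with earlier results of these data known. Named members are the 6 most and 5 least abundant, the 8 largest differences each way, those under the filter, members by role, and those that differ most between Control libraries. In each related list the 3 of smallest p are named. Rpl21, Rpl31, Rpl37, Rpl38, Rps24, Rpl22l1, Rps27l, Mdm2, Myc and the isoforms are outside this rule, chosen once their values had been seen. Changes of sign are given apart for differences within their SE. Alternatives covered the pseudocount, filter, scaling, variance model, replicate block, transcript choice, threshold and each library left out, and those on transcripts, copies and the subunit ratio were added after seeing the data. Figures were drawn with matplotlib 3.10.9 in Python 3.11.15.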

Additional observations from a re-analysis of the deposited data

How the results depend on the processing

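No ribosomal protein gene was called higher in Chd1KD under any alternative run, and 1 (Rps27) was called lower with the replicate number as a block. Leaving out each library in turn gave 0 to 1 lower calls, Rps27 without Chd1KD replicate 1 and Rpl32l without Control replicate 2. Calls over all tested genes varied far more, from 47 as reported to 0 without a filter, 71 with a mean of at least 5 RPKM, 77 when scaled to other genes, 6 without the variance trend, 92 with a robust trend, 325 with the replicate block, 12 with the most abundant transcript, 75 without genes listed at 0, 205 at an adjusted p under 0.1, and 49 to 236 with a library left out. The cause was not tested. Without a filter Chd1 kept its log2 difference of -0.96 but not its call (adjusted p = 0.25).

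The member median was 0.0056 after quantile normalization and ranged from -0.078 to 0.00086 with a library left out, and the ratio of sums was 1.003 after quantile normalization. The cause was not tested. The small to large subunit ratio stood at 0.973 after quantile normalization, 0.985 without Rps12, Rps15, Rps20 and Rps21, and 0.964 to 0.972 with a library left out. Of 508 values of 37 named genes under the alternatives, 476 kept their sign and side of the threshold, 3 newly passed and 29 changed sign. In 25 of these, from 10 genes (Rpl13a, Rpl22, Rpl24, Rpl26, Rpl36a, Rplp0, Rps2, Rps4x, Rps19 and Rps26), the reported difference was within its SE. The other 4 were Rps6 (0.020, quantile normalization), Rplp1 (-0.0059 without Control replicate 2, the lowest of -0.0059 to 0.190 over the libraries left out), and Rpl30 (-0.065) and Rpl34 (0.028) with their copies. The labels do not say that replicate numbers pair libraries, and same-numbered libraries deviated together at r = 0.22 over 10209 genes. With the block the limma adjusted p of Rps27 was 0.0087. With 2 libraries a group and unknown depth, simulated 1.1-fold changes were not recovered.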

Other observations

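Within the members, the log2 difference between Chd1KD and Control was also set against features that the naming rule did not use, as a description with no test. The 38 members above the median level had a median of -0.04, as had the 39 others. Those with a coding sequence longer than the member median of 456 bases had a median of -0.05 (38 members), against -0.02 for the 38 shorter ones, over a range of coding lengths from 75 to 1257 bases. Members with CCGGAAG in the promoter had a median of -0.05 (23 tested), against -0.04 in the 34 without it. Members whose transcript begins with 5 pyrimidines had -0.04 (17 tested), against -0.05 in the 40 others. The median was -0.02 in the 9 members with AAGATGG and -0.05 in the 48 without, -0.02 in the 7 with TATAAA and -0.05 in the 50 without, and -0.05 in the 34 with GGGCGG and -0.04 in the 23 without. With a pyrimidine run near the start it was -0.06 (36 members), against -0.04 in the 21 without. A total of 29 members hold snoRNA genes inside them, 57 snoRNA genes in all, small RNAs that guide the modification of ribosomal RNA and are made from introns. The median was -0.05 in these hosts and -0.03 in the 48 tested members without one.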
